A study of Mus musculus with 19 samples.

Results

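Glutathione transferases (Gst and Mgst), UDP-glucuronosyltransferases (Ugt) and sulfotransferases (Sult) were followed in whole liver of mice, with 19 samples on 1 Affymetrix array each. A gene was a member if a probe set (the spots for 1 target) carried a single platform symbol of the families Gsta, Gstm, Gstp, Gstt, Gstk, Gsto, Gstz, Mgst, Ugt1a, Ugt2a, Ugt2b, Ugt3a or Sult. Of 22180 genes 52 were members, namely 21 Gst or Mgst, 10 Ugt and 21 Sult genes, and each had 1 probe set. No Ugt1a gene was among them, nor were Gsta1, Gsta2, Gstm5 and Gstz1, and 9 probe sets that carry several symbols with at least 1 of these families were set apart.

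The mice were 2 to 3 months old, and for 4 weeks their food was either normal (ND) or high in fat (HFD, high-fat diet). On each diet there were mice with the genotype codes WT, KO and TG, with 3 arrays in each of the 6 groups except TG on HFD, which had 4. The codes are not spelled out in the labels, and only the title of the series names Kcp, a secreted protein that enhances signalling by BMPs and inhibits that by TGF-beta. The promoter of any transgene, the allele of the KO, the strain, the sex and the litters are not given in the sources used here. The running numbers in the sample titles follow the order of the groups, so that order and group cannot be told apart. A second number in each title differs in style between ND and HFD, so that this numbering and diet cannot be told apart either. What it counts is not given. The p-values measure only the spread between these samples, which may be technical in part.

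Values are the deposited log2 expression values, a difference is the difference of 2 group means on that scale, and no level of 1 gene is set against that of another. A member rose or fell where its adjusted p in limma was under 0.05 (two-sided, Benjamini-Hochberg over all 22180 genes in that comparison). Kcp read 5.35 to 5.81 on the 7 TG arrays, 1.77 to 2.82 on the 6 WT arrays and 1.64 to 2.30 on the 6 KO arrays. Where its probes lie relative to a deleted part is not known here. The 8 hepatocyte markers had mean levels of 10.38 to 10.60 per array. In whole tissue, fewer cells of a type and less RNA per cell cannot be told apart. The TG HFD array 2 read lowest of its 4 arrays for 21 of the 35 members that reached 2 on at least 3 arrays. Over these 35 members it also stood furthest from its group mean among all arrays, by 0.444 on average.

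These enzymes carry out the conjugation step of detoxification, in which a foreign compound, a bilirubin, bile acid or steroid molecule, or a product of lipid peroxidation is joined to a water-soluble group. Glutathione transferases add glutathione, UDP-glucuronosyltransferases of the endoplasmic reticulum add glucuronic acid from UDP-glucuronate, and cytosolic sulfotransferases add sulfate from PAPS. The liver is the main site of this step, transporters then move the conjugates into bile or blood, and many of the genes respond to the receptors CAR and PXR and to the factor NRF2.

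Of the 52 members 18 (34.6%) changed in at least 1 of the 7 comparisons of 2 groups and 34 in none, where 7.44% of all genes changed in at least 1. Of all genes 56.5% had a mean under 2, and 17 of the 52 members read under 2 on every array. The shares of members and of all genes given here are therefore not like for like. Both genotypes are set against the same WT arrays on each diet, so their comparisons share controls. On ND, 1 member (1.92%) rose in KO against WT, near the 1.38% of all genes that rose, and 3 (5.77%) fell, where 1.6% of all genes fell. On HFD, 1 member (1.92%) rose in KO against WT and none fell, where 0.194% of all genes rose and 0.144% fell. There 5 of the 52 members had an unadjusted p under 0.05 in limma, as had 1845 of the 22180 genes. In TG on ND, 2 members (3.85%) rose and 1 (1.92%) fell, against 0.924% and 0.379% of all genes. The most members changed in TG on HFD, where 2 (3.85%) rose and 7 (13.5%) fell, against 1.68% and 1.88% of all genes.

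With the high-fat diet, 1 member (1.92%) rose and 6 (11.5%) fell in WT, where 0.753% and 0.568% of all genes did. In KO none rose and 2 (3.85%) fell, against 0.46% and 0.343% of all genes. There 15 of the 52 members had an unadjusted p under 0.05 in limma, as had 2516 of the 22180 genes. In TG 1 (1.92%) rose and 5 (9.62%) fell, against 0.397% and 0.509% of all genes. For a difference between diet effects, KO minus WT or TG minus WT, no member was called, where 0.825% and 0.221% of all genes were. Unadjusted p-values under 0.05 were found in limma for 9 and 10 of the 52 members in these 2 interactions, and for 2413 and 1745 of the 22180 genes. The map of differences shows that 16 of the 32 calls were falls of Gst genes, and that Gstp3 was the one member that rose in both KO and TG.

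**Figure D1:**
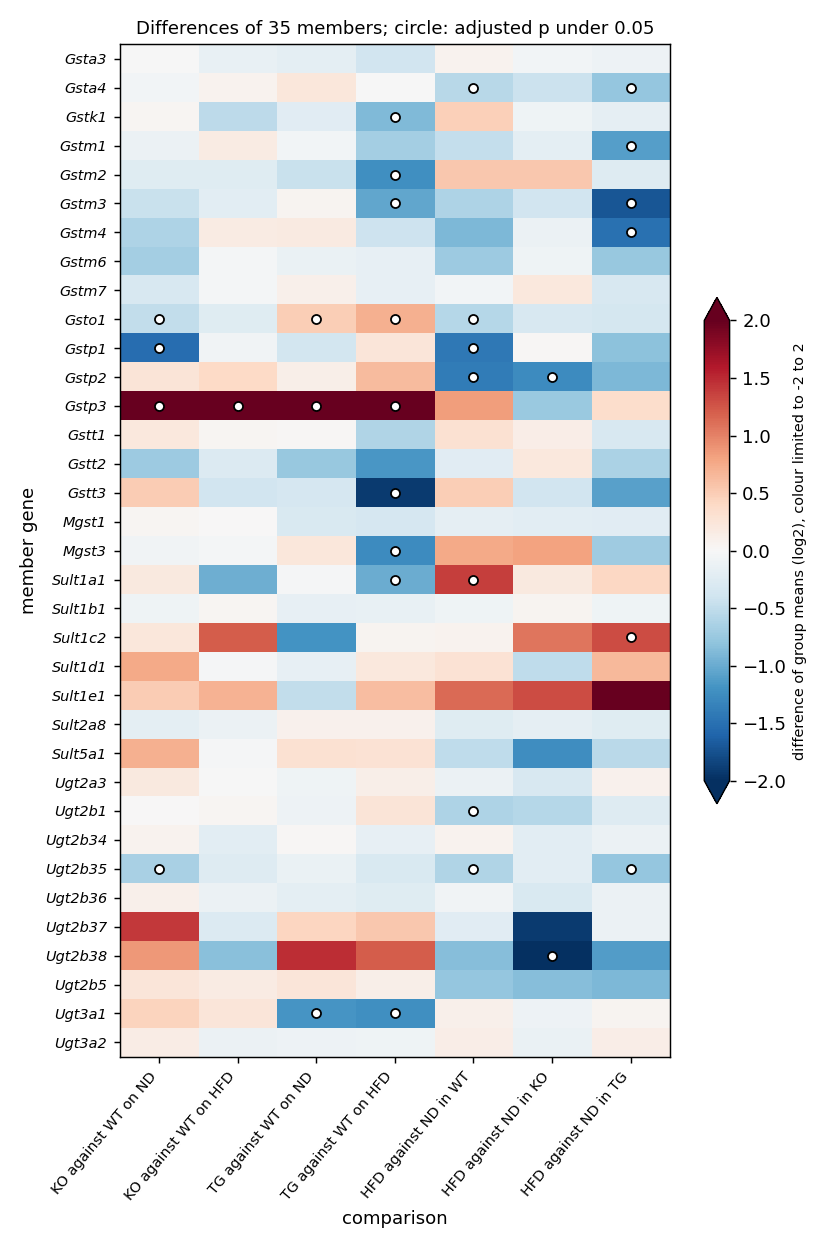
Differences of group means (log2) of the 35 members that reached 2 on at least 3 arrays, in rows, for 7 comparisons of 2 groups, in columns, with red for higher and blue for lower in the first named group and colours limited at 2 either way. Circles mark adjusted p under 0.05 in limma, and Gstp3 has 4 of them, in the columns of KO and TG against WT on both diets.

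The pi class (Gstp1, Gstp2 and Gstp3) held the largest differences of the 52 members, those of Gstp3. Its 3 genes lie beside each other in the mouse genome, and their promoters are printed here because Gstp3 rose in both KO and TG while Gstp1 and Gstp2 rose in neither. The windows run from 250 bases before to 50 bases after the gene start in RefSeq (GRCm38.p6), 5′ to 3′ on the minus strand of chromosome 19, at chr19:4037863-4038162 for Gstp1, chr19:4042172-4042471 for Gstp2 and chr19:4059398-4059697 for Gstp3. The 3 motifs searched on both strands were the AP-1 site TGAGTCA, the GC box GGGCGG and the TATA box TATAAA, chosen after the letters were seen. Capitals mark the matches, which do not overlap in these windows.
Gstp1: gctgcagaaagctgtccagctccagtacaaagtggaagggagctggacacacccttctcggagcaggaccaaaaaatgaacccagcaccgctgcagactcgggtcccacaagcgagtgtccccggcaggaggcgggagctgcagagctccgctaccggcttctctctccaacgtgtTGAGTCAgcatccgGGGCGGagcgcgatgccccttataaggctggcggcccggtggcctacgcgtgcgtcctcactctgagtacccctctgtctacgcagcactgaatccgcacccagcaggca
Gstp2: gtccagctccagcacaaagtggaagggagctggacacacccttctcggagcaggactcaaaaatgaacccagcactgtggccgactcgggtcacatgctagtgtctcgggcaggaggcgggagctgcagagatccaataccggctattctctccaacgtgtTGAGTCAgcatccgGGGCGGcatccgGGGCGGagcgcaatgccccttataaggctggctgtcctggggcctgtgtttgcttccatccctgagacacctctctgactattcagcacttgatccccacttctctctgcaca
Gstp3: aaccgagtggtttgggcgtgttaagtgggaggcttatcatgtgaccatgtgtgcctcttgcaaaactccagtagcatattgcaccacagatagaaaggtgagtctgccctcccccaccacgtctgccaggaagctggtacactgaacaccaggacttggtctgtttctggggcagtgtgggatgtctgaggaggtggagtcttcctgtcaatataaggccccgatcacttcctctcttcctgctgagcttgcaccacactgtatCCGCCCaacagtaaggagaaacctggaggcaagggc
The windows of Gstp1 and Gstp2 were identical at 76.4% of 318 aligned columns, gaps counted, while Gstp3 matched Gstp1 at 48.3% and Gstp2 at 43.6%. Gstp1 and Gstp2 each held 1 TGAGTCA, which starts 74 bases before the gene start in Gstp1 and 89 bases before it in Gstp2, and Gstp3 held none. GGGCGG occurred once in Gstp1 and 2 times in Gstp2 before the gene start, and once in Gstp3, on the other strand and after the gene start. Of 32851 mouse promoter windows of this length, 5.2% held TGAGTCA, 35.7% held GGGCGG and 13.6% held TATAAA, which none of the 3 Gstp windows held, and the matches describe letters only.

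Gstp3 rose in every comparison of KO or TG with WT. On ND it read 6.75, 7.39 and 6.33 in WT, 11.59, 11.64 and 11.62 in KO, and 11.09, 11.06 and 11.18 in TG. On HFD it read 7.83, 7.11 and 8.07 in WT, 11.36, 9.74 and 11.51 in KO, and 11.45, 11.19, 11.79 and 11.43 in TG. The 6 WT arrays thus ended at 8.07 and the 13 KO and TG arrays began at 9.74, with no overlap on either diet, and KO HFD array 2 was the lowest of the 13.

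The KO difference was 4.79 (SE 0.36, adjusted p = 3.31e-07) on ND, which is 27.8-fold, and 3.20 (SE 0.36, adjusted p = 0.000229) on HFD, which is 9.21-fold. The TG difference was 4.29 (SE 0.36, adjusted p = 1.33e-06) on ND and 3.80 (SE 0.33, adjusted p = 5.69e-06) on HFD, 19.5-fold and 13.9-fold. Its diet differences of 0.84 in WT, -0.75 in KO and 0.35 in TG did not pass (adjusted p = 0.369, 0.439 and 0.811). With only the 6 compared arrays in the fit, the KO difference on HFD no longer passed (adjusted p = 0.0594).

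Gstp1, a major pi-class enzyme of male mouse liver, fell in KO on ND and with the high-fat diet in WT. It read 11.63, 11.38 and 11.63 in WT ND, 10.40, 9.93 and 9.75 in KO ND, and 11.24, 11.46 and 10.83 in TG ND. On HFD it read 9.67, 10.56 and 10.12 in WT, 10.04, 10.28 and 9.83 in KO, and 10.28, 10.93, 9.48 and 10.73 in TG. The WT ND arrays lay above the WT HFD arrays and above all KO arrays, which lay between 9.75 and 10.40 over both diets, while the TG arrays of the 2 diets overlapped.

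The fall of Gstp1 in KO on ND was by 1.52 (SE 0.30, adjusted p = 0.00763), 2.87-fold lower, and its HFD difference in KO was -0.06 (adjusted p = 0.985). With the diet it fell by 1.43 in WT (SE 0.30, adjusted p = 0.0211), while the diet differences were 0.03 in KO and -0.82 in TG (adjusted p = 0.99 and 0.249). The test of the KO diet effect minus the WT diet effect gave 1.46 (SE 0.42, adjusted p = 0.138) and did not pass. The WT diet call was lost without any 1 WT ND array or without WT HFD array 1 or 3 (adjusted p from 0.0513 to 0.132).

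Gstp2 fell with the diet in WT and in KO and in no comparison of genotypes. It read 7.63, 7.01 and 7.47 in WT ND against 5.50, 6.25 and 6.16 in WT HFD, and 8.05, 7.68 and 7.18 in KO ND against 6.63, 6.20 and 6.28 in KO HFD. The diets did not overlap in either genotype. The falls were by 1.40 (SE 0.24, adjusted p = 0.0044) in WT and by 1.26 (SE 0.24, adjusted p = 0.0209) in KO, and the TG difference was -0.90 (adjusted p = 0.0778). The KO call was lost without KO ND array 1 or 2 or KO HFD array 2 or 3 (adjusted p from 0.0725 to 0.093). Gstp1 and Gstp2 are close copies, and their probe sets may not keep their transcripts apart.

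**Figure D2:**
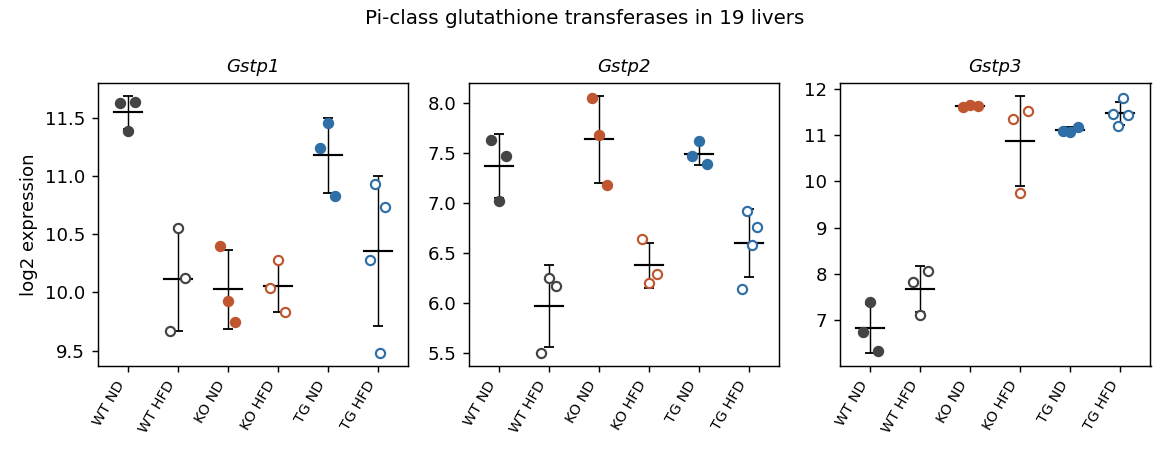
Log2 expression of Gstp1, Gstp2 and Gstp3 in each of the 19 livers, by genotype and diet; filled points are ND and open points HFD, horizontal lines are group means and error bars 1 SD (n = 3, and 4 in TG HFD). Gstp3 lies at 8.07 or below in WT and at 9.74 or above in KO and TG, while Gstp1 is highest in WT ND by its mean and Gstp2 is lower on HFD.

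As a description of likeness, the 5 other genes with the highest Pearson r with Gstp3 over the 19 arrays were D5Ertd579e (0.87), the ribosomal protein gene Rpl3 (0.86), Mios (0.84), the complement gene C4a (0.84) and App (0.84), among 9623 genes with a mean of at least 2. The arrays fall into a WT and a KO or TG cluster for Gstp3. Within the 13 KO and TG arrays the same r were 0.21, 0.23, -0.01, 0.25 and 0.07, and within the 6 WT arrays 0.43, 0.57, 0.54, 0.24 and -0.31.

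The omega-class gene Gsto1, whose enzyme reduces dehydroascorbate and methylated arsenicals, was lower in KO and higher in TG on ND. It read 6.85, 6.60 and 6.83 in WT ND, 6.42, 6.07 and 6.31 in KO ND, and 7.15, 7.32 and 7.26 in TG ND. It read 6.21, 6.22 and 6.12 in WT HFD, 5.83, 6.03 and 5.98 in KO HFD, and 6.91, 6.88, 6.88 and 6.92 in TG HFD. On each diet the KO arrays lay below every WT array and the TG arrays above every WT array.

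Gsto1 fell by 0.49 in KO on ND (SE 0.11, adjusted p = 0.0198), and its KO difference on HFD was -0.24 (adjusted p = 0.597). It rose in TG by 0.49 on ND (SE 0.11, adjusted p = 0.035) and by 0.71 on HFD (SE 0.10, adjusted p = 0.000692). With the diet it fell by 0.57 in WT (SE 0.11, adjusted p = 0.0114). The HFD call in TG passed without any 1 array. The TG call on ND was lost without any 1 of the 6 arrays compared (adjusted p from 0.0529 to 0.175). The KO call was lost without WT ND array 1 or 3 or KO ND array 2 (0.0799 to 0.118), and the diet call without WT ND array 1 or 3 or WT HFD array 3 (0.0561 to 0.0603). Gsto2, the other omega gene, was below 2 on all arrays.

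In TG on HFD the remaining calls among the Gst genes were all falls, and 17 of the 21 Gst and Mgst genes had a lower mean than WT (median difference -0.34, against -0.004 over all genes). The 5 that fell came from the kappa, mu, theta and microsomal classes. Gstk1, the kappa enzyme of mitochondria and peroxisomes, read 9.10, 9.54 and 9.58 in WT HFD and 8.53, 8.18, 8.75 and 8.65 in TG HFD. It fell by 0.88 (SE 0.13, adjusted p = 0.000994). The WT HFD arrays were above the other 16 arrays, of which the highest read 9.01, and the difference of KO from WT on HFD was -0.52 (adjusted p = 0.18).

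Gstt3, a theta-class gene, read 5.09, 4.93 and 4.75 in WT HFD and 3.69, 2.06, 3.79 and 2.48 in TG HFD. All TG arrays were lower, with arrays 2 and 4 furthest down, and the fall was by 1.92 (SE 0.33, adjusted p = 0.00296), or 3.77-fold. Its theta neighbours Gstt1 and Gstt2 had differences of -0.61 and -1.16 (adjusted p = 0.105 and 0.157), and TG HFD array 2 read 6.56 and 3.08 for them, its group's lowest values.

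Mgst3, a microsomal enzyme that also forms leukotriene C4, read 4.33, 4.37 and 4.67 in WT HFD and 3.20, 2.80, 3.91 and 2.90 in TG HFD. It fell by 1.25 (SE 0.22, adjusted p = 0.00347) with no overlap. In the test of the TG diet effect minus the WT diet effect it reached -1.48 (SE 0.33, adjusted p = 0.0866), with means of 3.69 on ND and 4.46 on HFD in WT and of 3.92 and 3.20 in TG. The calls for Gstk1, Gstt3 and Mgst3 passed without any 1 array, and were lost with only the 7 compared arrays in the fit (adjusted p = 0.0561, 0.0623 and 0.055).

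Among the mu class, Gstm2 read 5.15, 5.17 and 5.48 in WT HFD and 3.45, 3.33, 4.71 and 4.63 in TG HFD, and fell by 1.23 (SE 0.28, adjusted p = 0.0182). The TG arrays split into a lower and a higher pair, all under WT. The call was lost without WT HFD array 1 or 3 or TG HFD array 1 or 2 (adjusted p from 0.0547 to 0.0901). Gstm3 fell by 1.04 (SE 0.28, adjusted p = 0.0441) with overlapping arrays, since WT HFD read 6.10, 5.27 and 6.59 and TG HFD 4.94, 5.07, 5.41 and 4.37. That call was lost without any 1 of 15 of the 19 arrays (adjusted p from 0.0506 to 0.234), all but KO ND arrays 1 and 3, WT HFD array 2 and TG HFD array 3.

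**Figure D3:**
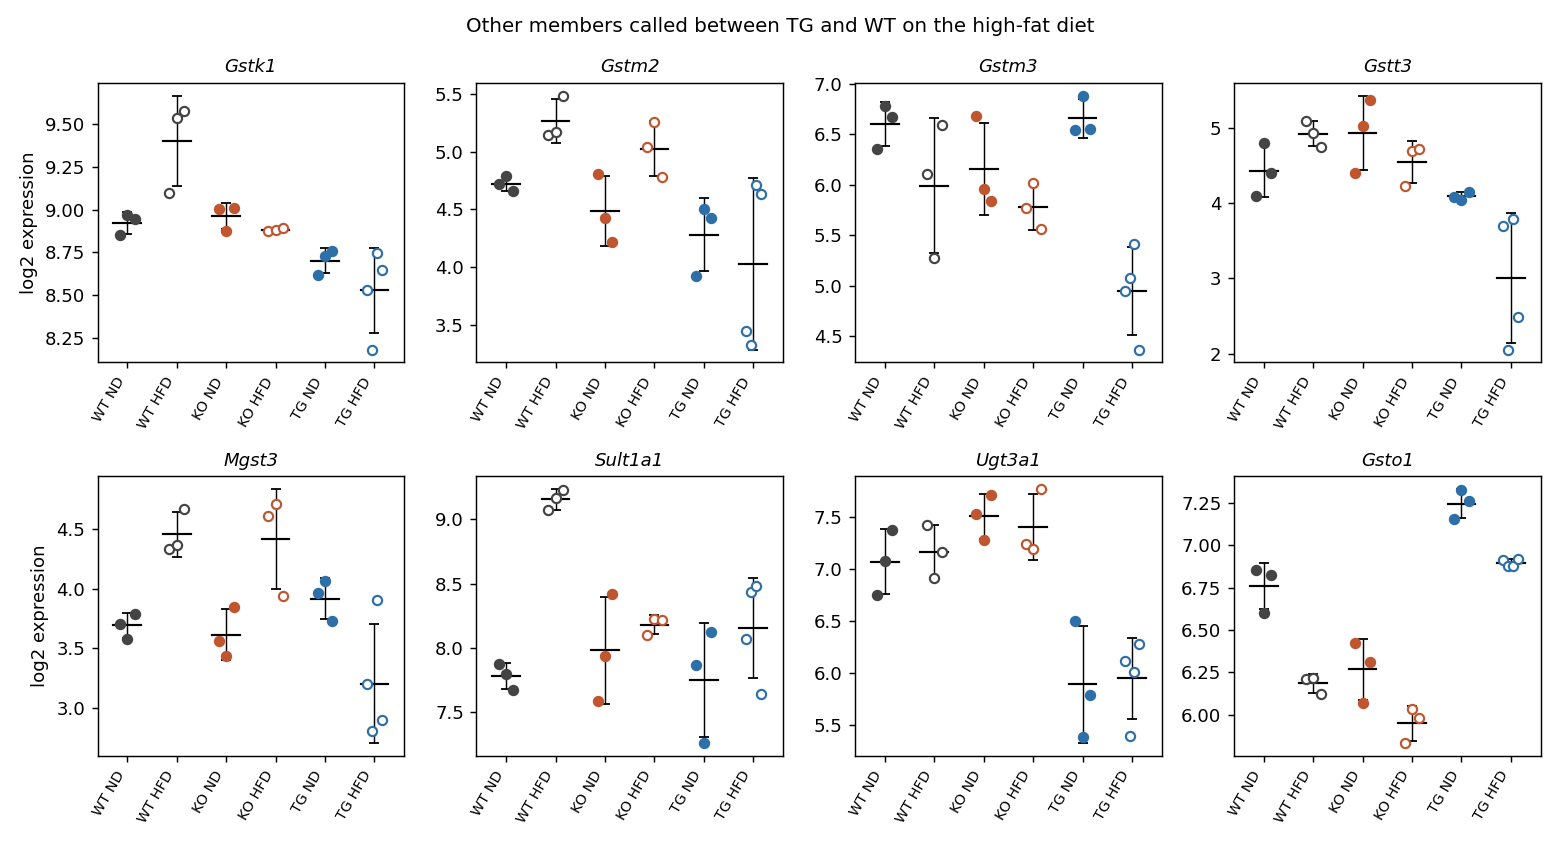
Log2 expression in each liver of the 8 members other than Gstp3 that changed between TG and WT on HFD, with filled points for ND, open points for HFD, lines for group means and error bars of 1 SD (n = 3, and 4 in TG HFD). On HFD the TG points lie below WT for Gstk1, Gstm2, Gstt3, Mgst3, Sult1a1 and Ugt3a1, above WT for Gsto1, and overlap WT for Gstm3.

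Each call of a Gst gene with the high-fat diet was a fall. The alpha-class gene Gsta4, whose enzyme conjugates 4-hydroxynonenal from lipid peroxidation, read 8.07, 7.96 and 7.77 in WT ND against 7.28, 7.45 and 7.41 in WT HFD. In TG it read 8.17, 8.30 and 7.99 on ND against 7.48, 7.42, 7.32 and 7.28 on HFD. In KO it read 7.79, 7.97 and 7.87 on ND against 7.43, 7.64 and 7.28 on HFD. The ND arrays lay above the HFD arrays in each of the 3 genotypes.

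Gsta4 fell by 0.56 in WT (SE 0.12, adjusted p = 0.0287) and by 0.78 in TG (SE 0.11, adjusted p = 0.00155), and its KO difference was -0.43 (adjusted p = 0.127). The WT call was lost without WT ND array 1 or 2 or WT HFD array 1 or 3 (adjusted p from 0.0727 to 0.138). Gsta3, the other alpha-class member, had diet differences of 0.08, -0.06 and -0.11 in WT, KO and TG (adjusted p = 0.959, 0.963 and 0.913).

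In TG, 3 of the 6 mu-class genes fell with the diet, where 0.509% of all genes fell, and all 6 had lower means on HFD, as had 10944 of the 22180 genes. Gstm3 read 6.54, 6.88 and 6.55 in TG ND and fell by 1.71 (SE 0.28, adjusted p = 0.00387), or 3.27-fold. Gstm4 read 4.08, 4.29 and 4.91 in TG ND and 2.76, 3.03, 3.12 and 2.83 in TG HFD, and fell by 1.49 (SE 0.25, adjusted p = 0.00536). Gstm1 read 6.67, 6.94 and 6.54 in TG ND and 5.61, 4.74, 6.27 and 5.84 in TG HFD, and fell by 1.11 (SE 0.24, adjusted p = 0.0322). The diets did not overlap for any of these 3 genes in TG. Whether the probe sets of the mu class keep its transcripts apart was not tested, so the 6 may not be separate readings.

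The Gstm1 call was lost without any 1 TG ND array or without TG HFD array 1 (adjusted p from 0.0552 to 0.175). In WT the diet differences of Gstm1, Gstm3 and Gstm4 were -0.48, -0.61 and -0.90 (adjusted p = 0.517, 0.458 and 0.139), and the tests of TG minus WT gave -0.63, -1.10 and -0.59 (adjusted p = 0.706, 0.485 and 0.763). No difference between the genotypes in the diet effect was therefore shown for them.

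Among the glucuronosyltransferases, Ugt3a1, which uses N-acetylglucosamine in place of glucuronic acid, was lower in TG on both diets. It read 6.75, 7.08 and 7.38 in WT ND against 6.50, 5.38 and 5.79 in TG ND, and 7.42, 6.92 and 7.17 in WT HFD against 6.11, 5.39, 6.01 and 6.28 in TG HFD. The TG arrays lay under the WT arrays on both diets, and KO read 7.20 to 7.77 over its 6 arrays. It fell by 1.18 on ND (SE 0.27, adjusted p = 0.0324) and by 1.22 on HFD (SE 0.25, adjusted p = 0.00914), 2.27-fold and 2.33-fold lower. The ND call was lost without WT ND array 2 or 3 or TG ND array 2 or 3 (adjusted p from 0.103 to 0.167), and the HFD call without WT HFD array 1 (adjusted p = 0.0625). Ugt3a2, the other member of its family, had TG differences of -0.10 and -0.09 (adjusted p = 0.888 and 0.782).

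Ugt2b35 was lower in KO on ND and lower on HFD in WT and TG. It read 8.15, 8.14 and 8.17 in WT ND, 7.53, 7.55 and 7.43 in KO ND and 7.96, 8.07 and 8.04 in TG ND. On HFD it read 7.70, 7.27 and 7.67 in WT, 7.30, 7.21 and 7.35 in KO, and 7.38, 6.85, 7.29 and 7.46 in TG. The 6 WT and TG arrays on ND, at 7.96 or above, lay over the other 13 arrays, of which the highest read 7.70.

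Ugt2b35 fell by 0.65 in KO on ND (SE 0.14, adjusted p = 0.0165), by 0.61 with the diet in WT (SE 0.14, adjusted p = 0.0419) and by 0.78 with the diet in TG (SE 0.13, adjusted p = 0.00569). Its diet difference in KO was -0.22 (adjusted p = 0.638), and the test of KO minus WT gave 0.39 (adjusted p = 0.514). The KO call on ND was lost without any 1 WT ND array or without KO ND array 3 (adjusted p from 0.0503 to 0.0674). The WT diet call was lost without any 1 of 16 of the 19 arrays, all but TG HFD arrays 1, 2 and 4 (adjusted p from 0.0514 to 0.153).

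Ugt2b1 read 11.27, 11.14 and 11.16 in WT ND and 10.88, 10.36 and 10.50 in WT HFD, and fell by 0.61 (SE 0.13, adjusted p = 0.0267). Its diet differences were -0.57 in KO and -0.25 in TG (adjusted p = 0.0516 and 0.523). The WT call was lost without any 1 WT ND array or without WT HFD array 2 or 3 (adjusted p from 0.0688 to 0.107).

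Ugt2b38 fell in KO with the diet, from 3.62, 3.24 and 2.38 to 1.10, 0.15 and 0.33, by 2.56 (SE 0.50, adjusted p = 0.0227). All 3 HFD arrays were under 2, where background limits what an array can resolve, and the call was lost without KO ND array 1 or 2 or KO HFD array 2 or 3 (adjusted p from 0.0734 to 0.0997). Ugt2b5 had diet differences of -0.78, -0.85 and -0.90 in WT, KO and TG that did not pass (adjusted p = 0.164, 0.127 and 0.0784). Among the 10 Ugt genes, Ugt2b34, Ugt2b36, Ugt2a3 and Ugt3a2 varied least, with SDs of 0.13 to 0.20 over the 19 arrays.

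Most sulfotransferases were dim in these livers. Of the 21 Sult genes 14 read under 2 on every array, among them Sult2a1 to Sult2a7 and Sult3a1, and 7 reached 2 on at least 3 arrays. Of these, Sult2a8, a liver sulfotransferase of the bile acid and steroid family, read 8.88 to 9.78 over all arrays, and its lowest adjusted p in the 9 comparisons was 0.707.

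Sult1a1, the phenol sulfotransferase, was highest in WT on HFD. It read 7.87, 7.79 and 7.68 in WT ND and 9.07, 9.17 and 9.23 in WT HFD, while KO HFD read 8.10, 8.23 and 8.22 and TG HFD 8.07, 8.44, 8.48 and 7.64. The WT HFD arrays lay above the other 16 arrays, of which the highest read 8.48. The rise with the diet in WT was by 1.38 (SE 0.23, adjusted p = 0.00346), or 2.60-fold, and the call passed without any 1 array.

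On HFD Sult1a1 fell by 1.00 in TG against WT (SE 0.22, adjusted p = 0.0132), a call lost without WT HFD array 3 (adjusted p = 0.0606). The KO difference on HFD was -0.97 (SE 0.23, adjusted p = 0.0965), and passed with only the 6 compared arrays in the fit. Its diet effect minus that of WT was -1.17 in KO (adjusted p = 0.117) and -0.97 in TG (adjusted p = 0.398), so that no difference between diet effects was shown.

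Sult1c2, which sulfates small phenols, read 2.83, 2.61 and 3.74 in TG ND and 3.76, 3.90, 5.08 and 4.72 in TG HFD. It rose by 1.31 (SE 0.29, adjusted p = 0.043), and the highest TG ND array lay just below the lowest TG HFD array. The call was lost without any 1 of 15 of the 19 arrays, all but TG ND array 3, KO HFD array 1 and TG HFD arrays 1 and 2 (adjusted p from 0.0501 to 0.242). Sult1e1, the estrogen sulfotransferase, was spread widely within groups, from 1.99 to 5.01 in TG HFD and from 2.07 to 5.42 in KO HFD, and its TG diet difference of 2.24 (SE 0.67) did not pass (adjusted p = 0.16).

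**Figure D4:**
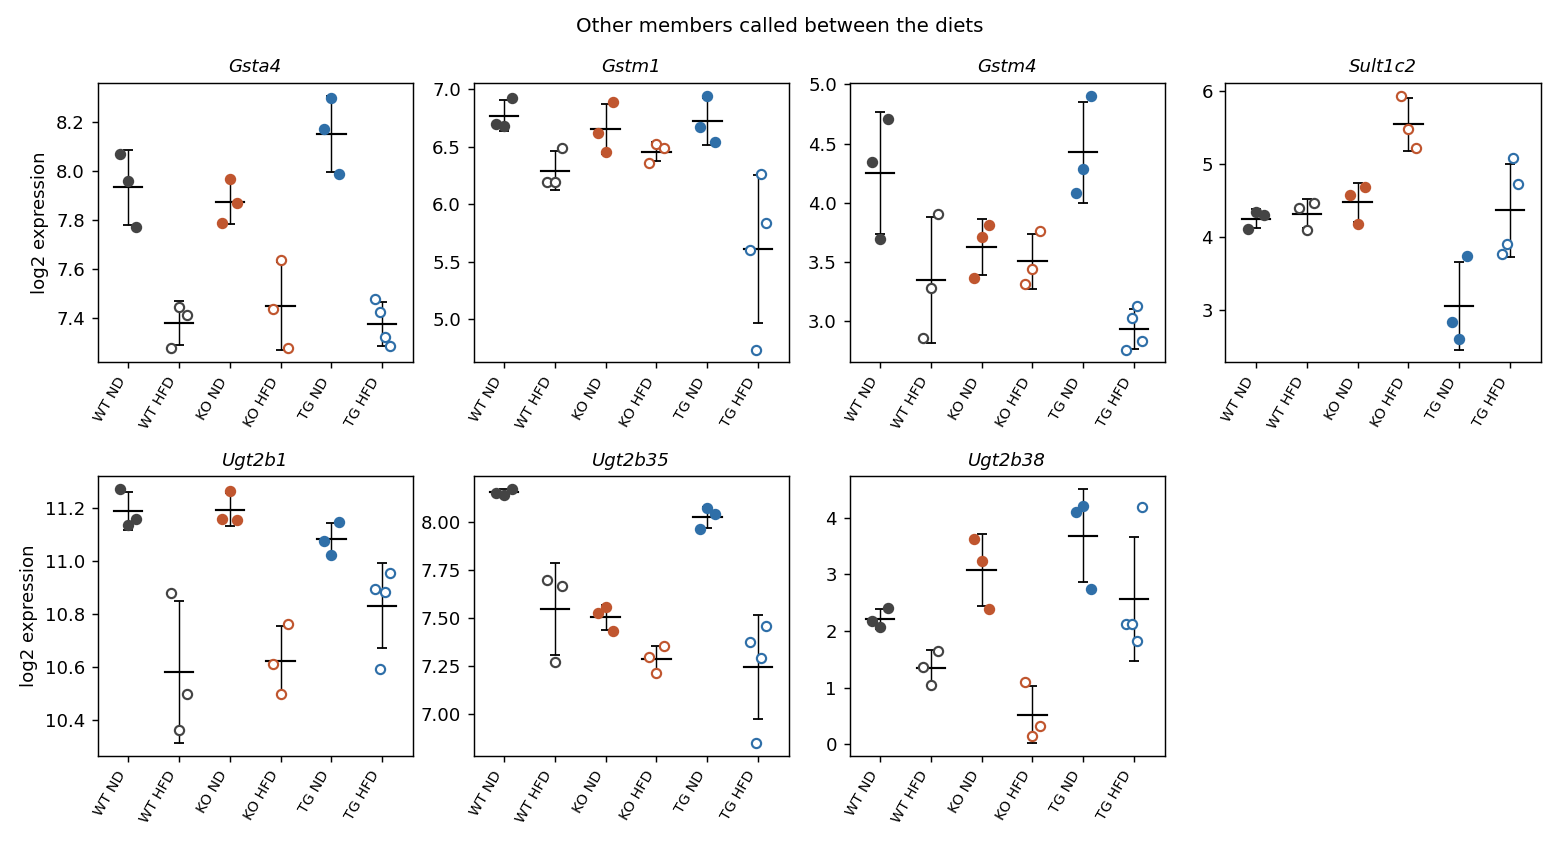
Log2 expression in each liver of 7 members that changed between the diets and are not in the other panels, with filled points for ND, open points for HFD, lines for group means and error bars of 1 SD (n = 3, and 4 in TG HFD). By their means, all the genes shown except Sult1c2 are lower on HFD in all 3 genotypes, and Gstm1 and Gstm4 are lowest in TG HFD.

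Of 12 measured genes that supply glutathione, UDP-glucuronate and PAPS, some fell in 3 of the 7 comparisons of 2 groups, and none rose. In KO on ND 3 fell, where the median was -0.28. They were Gclc, the catalytic subunit of the enzyme that limits glutathione synthesis (-0.70, adjusted p = 0.03), and the transsulfuration enzymes Cth (-0.86, adjusted p = 0.00056) and Cbs (-0.89, adjusted p = 0.000363). In TG on HFD 2 fell, Cbs (-0.57, adjusted p = 0.00768) and Ugdh, which makes UDP-glucuronate (-0.76, adjusted p = 0.00399). With the diet in TG 4 fell, Gclc (-0.70), Gsr (-0.54), Ugdh (-0.62) and Cbs (-0.84), with adjusted p of 0.0462 or lower. None was called in limma with the diet in WT or KO, in TG on ND or in KO on HFD. There 6, 2, 4 and 3 of the 12 had an unadjusted p under 0.05, as had 2485, 2516, 2212 and 1845 of the 22180 genes.

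Among 13 other conjugating enzymes, As3mt, the arsenic methyltransferase, fell by 1.95 in KO on ND and by 2.54 in KO on HFD (adjusted p = 0.00472 and 0.00257), and fell by 1.30 in TG on HFD (adjusted p = 0.0405). Tpmt, the thiopurine methyltransferase, fell with the diet in WT by 0.56 (adjusted p = 0.0253) and was 0.72 higher in TG than in WT on HFD (adjusted p = 0.00122), and its diet effect in TG minus that in WT was 0.83 (adjusted p = 0.048). Of 10 transporters of conjugates, Abcc3, which exports glucuronides into blood, fell in TG by 1.38 against WT on HFD (adjusted p = 0.00913) and by 1.41 with the diet (adjusted p = 0.0207). Slco1a1 fell with the diet in KO by 0.83 (adjusted p = 0.0384). Of 9 enzymes that reverse or further process conjugates, only the sulfatase Arsa changed, by -0.89 in TG on HFD (adjusted p = 0.00618).

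Among 11 measured NRF2 targets, 3 fell and 1 rose in TG on HFD. Nqo1 fell by 1.41, Srxn1 by 0.89 and Ephx1 by 0.80 (adjusted p = 0.00136, 0.0154 and 0.0381), while the heme oxygenase Hmox1 rose by 1.60 (adjusted p = 0.000442). Hmox1 also rose in TG on ND, by 1.09 (adjusted p = 0.024), Gclc fell in KO on ND, and Nqo1, Gclc and Ephx1 fell with the diet in TG. Among 11 regulators, only Nr1i2, which encodes PXR, changed, with a rise in KO on ND by 0.83 (adjusted p = 0.0114).

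Of 11 CAR and PXR targets, 5 fell and 1 rose with the diet in WT, 5 fell in KO and 4 fell in TG. Cyp2c55 fell by 3.50, 2.59 and 2.31, Cyp3a11 by 1.84, 1.66 and 2.20, and Ces2a by 1.45, 1.26 and 1.31 in WT, KO and TG (adjusted p = 0.0125 or lower in each). Between genotypes, 2 rose and 2 fell in KO on ND, 1 fell in KO on HFD, 2 fell in TG on ND and 3 fell in TG on HFD. Cyp2c55 was among those that fell in all 4, with differences of -2.74 and -1.84 in KO and of -3.13 and -1.95 in TG on ND and HFD. Alas1, the first enzyme of heme synthesis, rose by 2.93 in KO on ND (adjusted p = 0.000162), and Cyp2c37 differed by -2.57 there (adjusted p = 2.96e-05). Of 7 PPARA targets, 3 fell in TG on HFD, where the median was -1.38, and they were Cyp4a14, Vnn1 and Acot3. In the other comparisons of 2 groups 1 rose in KO on ND, 2 rose with the diet in WT and 1 fell with the diet in KO. None of 6 AHR targets was called in limma in any of the 9 comparisons, and 0 to 3 of them had an unadjusted p under 0.05. Of the 6, Cyp1a1, Cyp1b1 and Ahrr read under 2 on every array, where a change may go unseen.

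Markers of other cells and states moved beside many of these results. All 8 Kupffer cell markers rose in TG on both diets, and their mean level per array was 4.33 to 4.82 in WT, 4.34 to 5.31 in KO and 5.88 to 6.53 in TG, with none of the 8 under 2 throughout. Of these markers Marco fell in KO on ND and with the diet in WT. Of 13 acute-phase genes, 4 rose in TG on ND, 2 in KO on ND and 2 in TG on HFD, which are 3 of the 4 comparisons in which Gstp3 rose. In the other, KO on HFD, none of the 13 was called in limma (median difference 0.77). An unadjusted p under 0.05 was found for 5 of them, and for 1845 of the 22180 genes. The metallothioneins Mt1 and Mt2, which bind metals, were the 2 that rose in KO on ND, by 2.32 and 3.21, and in TG on HFD, by 3.14 and 4.17. In TG on ND they rose by 3.51 and 4.75, beside Saa3 and Lcn2. The mean level of the list was 6.96 to 7.10 in WT ND, 7.45 to 8.46 in KO ND and 8.45 to 9.13 in TG ND. On HFD it was 7.13 to 8.50 in WT, 8.32 to 9.13 in KO and 8.03 to 9.62 in TG.

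Of 12 clock genes, 6 rose and 4 fell in KO on ND, 5 rose and 2 fell with the diet in WT, and 7 rose and 3 fell with the diet in TG, which are the comparisons in which Ugt2b35 fell. Their mean level was 4.66 to 4.87 on the WT and TG arrays on ND, 5.06 to 5.09 on the KO arrays on ND and 4.92 to 5.26 on HFD. Of 12 male-biased liver genes, 5 rose and 3 fell in TG on HFD, 2 rose and 2 fell in KO on ND, 2 fell in KO on HFD and 1 rose in TG on ND. With the diet 1 rose and 3 fell in WT, 3 fell in KO and 1 fell in TG. Of 10 female-biased genes, 3 fell in TG on HFD and 3 rose with the diet in WT, and each other comparison of 2 groups called 1 or 2. Acot3, among the 3 both times, is also on the list of PPARA targets. Most of this list was dim, with 4 of the 10 (WT ND) to 8 (TG ND) under 2 on every array of a group. Of 7 periportal genes 3 rose in TG on HFD, 1 rose and 2 fell in KO on ND, and 2 fell with the diet in WT. No comparison called more than 1 of 10 pericentral genes. In TG on HFD, where 1 of these 10 fell, their median difference was -0.68. There 7 of the 10 had an unadjusted p under 0.05 in limma, as had 3368 of the 22180 genes. The part of these cells and states in the members' results was not tested.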

How the data were processed

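RNA of whole liver was measured on 19 Affymetrix arrays of 1 colour, with biotin-labelled cDNA per the labels' protocols. The deposited table holds normalized log2 values per probe set, and affy, RMA and limma are named, with no version, role or order, per the submitters' processing notes. The log base was inferred from those names and from the values, of which 1.81% were below 0. If it were another, differences would scale by 1 factor and the tests would stay as they are.

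Of 41345 probe sets 23521 carried 1 symbol in the platform annotation, 1814 several and 16010 none here. The probe set with the highest mean stood for a gene with several, which left 22180 genes. All 52 members matched RefSeq (GRCm38.p6) by Entrez identifier, and 45 had a promoter entry. The 19 arrays entered 1 model of 6 group means in limma 3.58.1 (R 4.3.3, lmFit and eBayes, 13 residual and 4.76 prior degrees of freedom), with 9 comparisons and Benjamini-Hochberg adjustment within each at 0.05. SE is limma's moderated standard error and SD the spread between arrays. Promoters were aligned from end to end with Biopython 1.88 (match 1, mismatch -1, gap opening -3). The procedure was tested on simulated data. The members, the gene lists and the promoter motifs were chosen with earlier results of these data known. Members were named where they changed in at least 1 comparison, had the highest mean of their family or were on a fixed list of well-known genes, and related genes were taken by smallest p among those called, up to 4 per list and comparison. Alternatives were a fit of only the arrays compared, a filter on genes under 2, the mean of all probe sets, repeated quantile normalization, array weights, a trended prior variance, and the leaving out of each array. Arrays have no read depth, and their number limits the precision.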

Additional observations from a re-analysis of the deposited data

Results flagged for a closer look

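In TG HFD, the group of 4 arrays, 5 of the 52 members had 1 array further from the others than Dixon's 95% limit. Chance alone gives this in about 1 in 20 groups, and the share of all genes past the limit was not computed. Over all genes, TG HFD arrays 2 and 4 stood furthest from their group mean among all arrays, by 0.188 and 0.175 on average. TG HFD array 2 read 8.94 for Sult2a8, with the next array at 9.58, and 9.85 for Ugt2b34, with the next at 10.25. TG HFD array 4 read 4.19 for Ugt2b38, with the next at 2.12. It also read 0.819 for Sult2a3 and 0.631 for Sult2b1, both under 2 on all arrays, with the next arrays at 0.355 and 0.359. None of these 5 members changed in a comparison that holds TG HFD.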

How the results depend on the processing

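Each of the 32 called member results was recomputed under 26 other settings. Of 832 values, 710 stayed past the threshold, 122 did not, and 0 changed direction. The fit of only the compared arrays, which has fewer degrees of freedom, ended 18 of 32 calls. Under it 1 member was called in TG against WT on ND, 3 in TG against WT on HFD, 3, 1 and 3 with the diet in WT, KO and TG, and 1 in KO against WT on HFD, where Sult1a1 took the place of Gstp3. The filter on dim genes, the mean of all probe sets, the repeated normalization and the trended prior ended none of the 32. Each member had 1 probe set, and every called member passed the filter. The mean of all probe sets and the filter thus left the called members' values unchanged and could hardly end a call. Their results are counted among the 710. Array weights ended Gstm3 in TG on HFD. Leaving out WT HFD array 1 and TG HFD array 2 together, chosen after the data were seen, ended 5 and gave 2 members in KO against WT on HFD, 4 with the diet in KO and 1, Gstk1, for the KO minus WT diet effect. Leaving out 1 array gave 2 to 5 members in KO against WT on ND and 1 in KO against WT on HFD. It gave 1 to 4 in TG on ND and 6 to 11 in TG on HFD. With the diet it gave 2 to 7 in WT, 0 to 3 in KO and 4 to 6 in TG, and 0 to 1 for each interaction. The number of all genes called under each of these settings is not given here. A change in a count of members thus cannot be told apart from a change in the number of calls in general. No paired analysis was possible because no number in the sample titles is shared between groups. The 17 members under 2 on all arrays are near background, where a change may go unseen.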

Other observations

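The 9 probe sets that carry several symbols, at least 1 of them of these families, were fitted with all 41345 probe sets in limma. None rose in any comparison, and 1 fell in each of 4 comparisons, KO against WT on ND, TG against WT on HFD, and the diet in WT and in TG, with lowest adjusted p of 0.0126, 0.00918, 0.0381 and 0.0359. Unadjusted p-values under 0.05 were found for 2, 3, 3 and 3 of the 9 there. Of all probe sets 1.4%, 1.71%, 0.605% and 0.317% were called in these comparisons.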
